A study of Mus musculus with 10 samples.

Results

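The 37 genes described here encode transcription factors that set cell fate in the early mouse embryo, namely 7 factors of the primitive streak and mesoderm, 7 of endoderm, 10 of neural cells, 9 of trophoblast and 4 others (Meis1, Foxc1, Foxj3 and Irx3). They were taken by name from the deposited RNA-seq tables, and all 37 had an entry among 22867 gene symbols. The question was which of them were off and which were detected in cultured pluripotent cells. The tables hold FPKM (fragments scaled to transcript length and to the mapped total of the library), a level per length that can be set side by side between genes.

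The 10 libraries came from mouse embryonic stem cells (ESCs) of strain 129SV and from epiblast-like cells (EpiLCs). ESCs had been grown without serum with LIF, an inhibitor of MEK (PD0325901, 0.8 µM) and one of GSK3 (CHIR99021, 3.3 µM). EpiLCs were the same lines after 48 h in bFGF and KSR, a serum replacement. R1, taken as wild type since its labels name no mutation, gave 2 ESC libraries and 2 EpiLC libraries, 1 without and 1 with activin A at 20 ng/ml, and E14, likewise, gave 1 library of each state. An Otx2-/- line gave 1 ESC and 1 EpiLC library, and Otx2-/- ESCs carrying a tetON Otx2 transgene gave 1 library without and 1 with doxycycline (dox). The labels do not say whether E14 and Otx2-/- EpiLCs received activin A, which part of Otx2 is deleted, or how many Otx2-/- clones were used. They also do not state how much dox was used, or for how long. The labels' protocols speak of independent biological replicates of ESC and EpiLC culture.

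At gastrulation, cells of the epiblast pass through the primitive streak, where T-box and homeobox factors direct them to mesoderm and definitive endoderm, while SoxB1 factors accompany the neural fate. Trophoblast and primitive endoderm separate earlier, in the blastocyst, under factors such as Cdx2, Tead4, Gata3, Gata6 and Gata4. Many promoters of such developmental regulators are rich in CpG dinucleotides and are held silent in pluripotent cells by Polycomb proteins.

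Promoter sequence is shown for 3 members that span the range found. Hes5 and Mesp1 had no library at 1 FPKM and Foxj3 had 9.71 FPKM or more in all of them. Sequences are from RefSeq on GRCm38.p6, 5′ to 3′ on the gene's strand, restricted to the longest stretch before the start that lies outside annotated exons, with each CpG in capitals. Hes5 (chr4:154960673-154960769, plus strand) and Foxj3 (chr4:119539530-119539660, plus strand) had 41 and 42 CpG in their 300-base windows, and Mesp1 (chr7:79793789-79793840, minus strand) had 4.
Hes5: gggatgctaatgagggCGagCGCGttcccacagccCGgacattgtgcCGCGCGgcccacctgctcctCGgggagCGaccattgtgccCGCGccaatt
Mesp1: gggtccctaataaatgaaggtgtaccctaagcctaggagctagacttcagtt
Foxj3: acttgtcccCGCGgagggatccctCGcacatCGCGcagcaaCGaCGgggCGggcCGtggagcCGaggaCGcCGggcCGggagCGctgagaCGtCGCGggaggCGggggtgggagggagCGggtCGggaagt
The shown stretches hold 11 CpG for Hes5, 0 for Mesp1 and 20 for Foxj3. They are 97, 52 and 131 bases long, so these counts are not of like stretches. They run from 250 to 154 bases before the start for Hes5, 250 to 199 for Mesp1 and 131 to 1 for Foxj3.

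Promoter windows (250 bases before to 50 after the start) were at hand for 27 of the 37 members. Where a gene had more than 1 window, that with most CpG was used, for members and all genes alike. The member windows held a median of 21 CpG, against 15 over the 15462 genes of the tables with a window. Of the 27, 24 (88.9%) had 10 CpG or more, against 61.0% of all genes. Among genes under 1 FPKM in every library, the 10 members with a window had a median of 12 CpG and the 5962 genes of that class a median of 3. Of those 10 members, 7 (70.0%) had at least 10 CpG, against 23.3% of all genes of the class. Elf5 is among the 7 by its window of 10 CpG, while its other window held 3. The 4 members that reached 1 FPKM in every library had a median of 25.5 CpG, against 23 for all 7286 such genes. CpG counts of the 10 members under 1 FPKM in every library ran from 4 in Mesp1 and Hnf4a to 41 in Hes5. They overlapped the range of the detected ones. The motif TAATCC, a core bound by homeodomain proteins of the Otx and Gsc kind, was searched on both strands. It was in 0 of the 27 member windows and in 6.20% of the windows used for all genes.

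**Figure D1:**
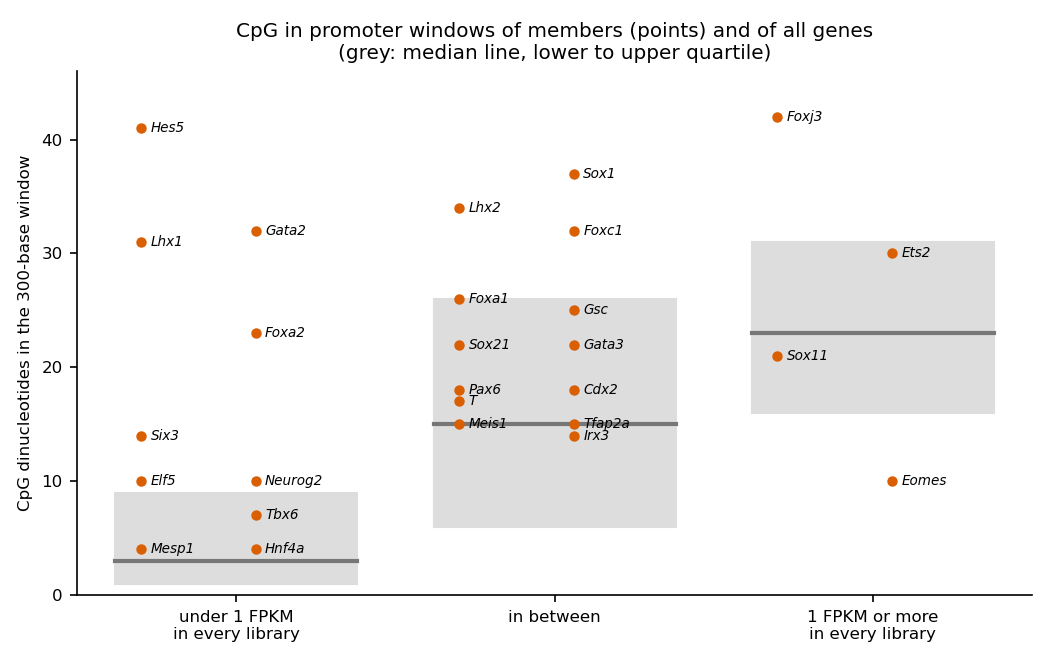
CpG dinucleotides (y axis, count in the gene's 300-base promoter window with most CpG) of the 27 members with a window, by detection class (x axis). Points are single genes, and the grey line and box give the median and the lower to upper quartile of all genes of the class. Of the 10 members never at 1 FPKM, 7 lie above the grey box of their class, with Hes5, Gata2 and Lhx1 the highest.

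As a check of the labels, Otx2 was at 3.96 to 9.09 FPKM in the wild-type ESC libraries and 39.9 to 151 in the wild-type EpiLC libraries. It was at 7.85 and 15.8 FPKM in Otx2-/- ESC and EpiLC, which cannot check the deletion since its extent is not given, and at 45.8 without and 1059.3 with dox. Approximate depth ran from 6.6 to 20.6 M fragments. It was estimated from the lower quartile of olfactory receptor values above 0, taken as 1 fragment on a transcript of about 1 kb. In the shallowest library (E14 EpiLC) 1 FPKM then stood for a median of 14.7 fragments over the members, from 5.0 (T) to 54.9. These counts use the median length of a gene's annotated coding transcripts, 761 bases for T. Levels under 1 FPKM thus rest on few fragments. The summed level of 7 pluripotency markers was 2487 to 2687 FPKM in the 4 ESC libraries without a transgene. It was 730 to 913 in the EpiLCs, and 2568 without and 1003 with dox. These markers did not move alike with dox. Tfcp2l1 was at 126 FPKM without and 148 with dox, against 3.58 to 8.79 in EpiLC. Klf4, Esrrb and Zfp42 were lower with dox, but at 22.8, 45.0 and 136 FPKM lay above every EpiLC library. Pou5f1 (440) and Sox2 (61.6) lay below every EpiLC library, and Nanog (150) within their range. Of 8 fibroblast markers, 5 reached 1 FPKM somewhere. The 8 summed to 1.73 to 2.90 FPKM in the ESCs without a transgene and 5.88 to 12.4 in EpiLC. With the transgene they summed to 4.39 without and 9.80 with dox. Several members (T, Eomes, Sox11 and Cdx2) set R1 ESC replicate 1 apart, and the EpiLC test below is also given without it.

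Lineage factors were mostly off or low in these cells, and 26 of the 37 never reached 5 FPKM. A gene is called off here where it was under 1 FPKM in every library, and detected throughout where every library had 1 FPKM or more. Of the 37, 13 (35.1%) were off, against a background of 39.6% of all symbols, so this share was near that of genes in general. Eomes, Sox3, Sox11, Tfap2c, Ets2 and Foxj3, 6 in all (16.2%), were detected throughout, against 44.4% of all symbols. The other 18 (48.6%) crossed 1 FPKM between libraries, against 16.0% of all symbols, and 13 of these 18 (72.2%) never reached 5 FPKM, the same share as for all symbols in between (72.2%). A level of 5 FPKM was reached somewhere by 11 members (29.7%), against 45.7% of all symbols, and in every library by Ets2 and Foxj3 alone among the members. In cultures read in bulk, a low level in all cells and a higher level in few cells cannot be told apart.

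The count of members at 1 FPKM or more was 14 in both R1 ESC replicates, 11 in E14 ESC, 12 in Otx2-/- ESC and 14 in the transgenic ESCs without dox. It was 13 in R1 EpiLC without activin A, 9 with activin A, 10 in E14 EpiLC and 9 in Otx2-/- EpiLC. It was 18 in the transgenic ESCs with dox, the highest count of the 10 libraries. Over all symbols the number at 1 FPKM or more was also highest there, at 12134, next to 12133 in R1 EpiLC with activin A, which had 9 members, and lowest in R1 ESC replicate 1, at 11409. The dox library held the highest level of 13 members (35.1%), against 20.7% of the 20188 symbols with a value above 0. Over all symbols the median level there was 1.49 FPKM, at the top of a range that began at 0.984 in R1 ESC replicate 1.

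Of the 18 members in between, 6 passed 1 FPKM in a single library. These were T and Cdx2 in R1 ESC replicate 1, Mixl1 in E14 EpiLC, and Foxa1, Gata6 and Foxc1 in the dox library. Without R1 ESC replicate 1 the members off numbered 15, and without the dox library 16. Shares over all symbols were not counted for these cases or for passing in a single library. Near the threshold, the highest level of members that were off was 0.933 FPKM for Gata2, 0.684 for Tbx6, 0.667 for Foxa2, 0.660 for Sox7 and 0.635 for Hnf4a. Just above it, the highest level was 1.20 FPKM for Gata6, 1.34 for both Foxc1 and Gata3, 1.46 for Mixl1, 1.59 for Meis1 and 1.73 for Lhx2.

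**Figure D2:**
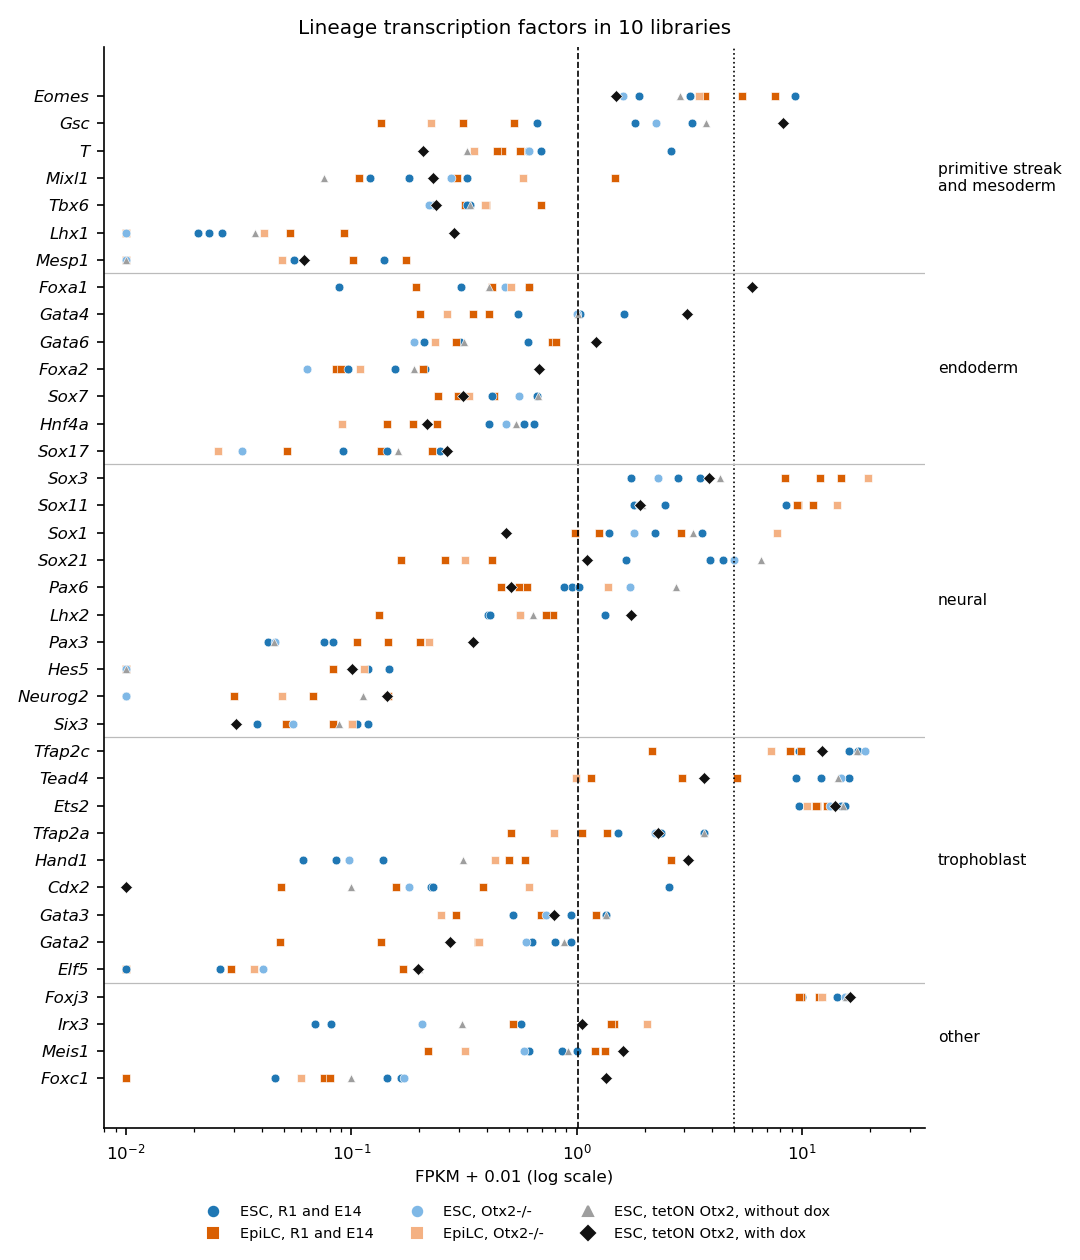
FPKM plus 0.01 (x axis, log scale) of the 37 members (y axis, grouped by lineage and ordered by highest level), with 1 point per library and colour and shape for the kind of cell. The dashed line marks 1 FPKM and the dotted line 5 FPKM. Foxj3, Ets2 and Tfap2c lie at the right, and 13 members have every point left of the dashed line.

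Among streak and mesoderm factors, 3 were off, 1 was detected throughout and 3 were in between. Off were Mesp1, an early marker of cardiac mesoderm, with a highest level of 0.165 FPKM, Tbx6, a factor of paraxial mesoderm, and Lhx1, a LIM-homeobox factor of the head organizer, with a highest level of 0.277 FPKM. Mesp1 was listed at 0 in 4 libraries and Lhx1 in 2.

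Brachyury (T, chr17:8627288-8635361 on mm9), the T-box factor that marks the streak, was at 2.61 FPKM in R1 ESC replicate 1 and at 0.198 to 0.681 FPKM in the other 9 libraries. Mixl1, a homeobox factor of the streak, was at 1.46 FPKM in E14 EpiLC and at 0.0658 to 0.568 FPKM elsewhere. Each thus passed 1 FPKM in 1 library only, and in different states.

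Eomes (chr9:118387307-118395250), a T-box factor of streak, endoderm and trophoblast, was at 9.31 FPKM in R1 ESC replicate 1, 3.18 in replicate 2 and 1.88 in E14 ESC. R1 EpiLC had 5.42 FPKM without and 7.61 with activin A, and E14 EpiLC had 3.71. In Otx2-/- cells the level was 1.60 FPKM as ESC and 3.47 as EpiLC, and the transgenic ESCs had 2.86 without and 1.48 with dox. R1 ESC replicate 1 was the highest of the 10 libraries, and the ESC and EpiLC groups overlapped because of it.

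Gsc (chr12:105709419-105711446), the homeobox factor goosecoid of the organizer, was at 0.659 FPKM in R1 ESC replicate 1, 3.25 in replicate 2 and 1.80 in E14 ESC. R1 EpiLC had 0.126 FPKM without and 0.514 with activin A, and E14 EpiLC had 0.303. The Otx2-/- line had 2.23 FPKM as ESC and 0.216 as EpiLC, and the transgenic ESCs had 3.72 without and 8.18 with dox. Every EpiLC library lay below every ESC library, and the dox library was the highest.

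Among endoderm factors, 4 were off and none was detected throughout. Off were Foxa2, a forkhead factor of definitive endoderm and node, Sox17 (highest level 0.256 FPKM) and Sox7, HMG-box factors of endoderm, and Hnf4a, a nuclear receptor of visceral endoderm and liver. Hnf4a was at 0.396 to 0.635 FPKM in the wild-type ESC libraries and at 0.134 to 0.229 in the wild-type EpiLC libraries, without overlap.

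Foxa1 (chr12:58641619-58647108), a forkhead factor that opens chromatin for endoderm genes, was at 0.0779 FPKM in R1 ESC replicate 1, 0.602 in replicate 2 and 0.298 in E14 ESC. R1 EpiLC had 0.4125 FPKM without and 0.604 with activin A, and E14 EpiLC had 0.183. Otx2-/- ESC and EpiLC had 0.473 and 0.501 FPKM, and the transgenic ESCs had 0.400 without and 5.99 with dox. The dox library alone was above 1 FPKM.

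Gata4 and Gata6, zinc-finger factors of primitive endoderm, stayed low. Gata4 ranged from 0.193 to 3.08 FPKM (median 0.766) and passed 1 FPKM in both R1 ESC replicates and in both transgenic libraries. Gata6 ranged from 0.179 to 1.20 FPKM (median 0.299). Both were highest in the dox library.

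Neural factors held 4 members that were off, 2 detected throughout and 4 in between. Off were Pax3, a factor of dorsal neural tube and neural crest, with a highest level of 0.337 FPKM, Six3, a forebrain factor (0.108), Neurog2, a proneural bHLH factor (0.135), and Hes5, a Notch target (0.138). Neurog2 was listed at 0 in 4 libraries and Hes5 in 5. Of the low ones, Pax6, a factor of eye and forebrain, ranged from 0.452 to 2.75 FPKM (median 0.906) and Lhx2, a LIM-homeobox factor of forebrain, from 0.123 to 1.73 (median 0.590). Pax6 passed 1 FPKM in R1 ESC replicate 2, both Otx2-/- libraries and the transgenic ESCs without dox, and Lhx2 in R1 ESC replicate 2 and the dox library.

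Sox3 (chrX:58144541-58146605), a SoxB1 factor of neural progenitors and epiblast, was at 3.53 FPKM in R1 ESC replicate 1, 1.74 in replicate 2 and 2.81 in E14 ESC. R1 EpiLC had 14.9 FPKM without and 8.42 with activin A, and E14 EpiLC had 12.0. In Otx2-/- cells the level was 2.28 FPKM as ESC and 19.7 as EpiLC, and the transgenic ESCs had 4.32 without and 3.83 with dox. All EpiLC libraries lay above all ESC libraries, and the dox library lay with the ESCs.

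Sox11 (chr12:28019133-28027583), a SoxC factor of differentiating neurons, was at 8.43 FPKM in R1 ESC replicate 1, 1.79 in replicate 2 and 2.47 in E14 ESC. R1 EpiLC had 9.57 FPKM without and 9.45 with activin A, and E14 EpiLC had 11.1. The Otx2-/- line had 1.88 FPKM as ESC and 14.2 as EpiLC, and the transgenic ESCs had 1.94 without and 1.89 with dox. Every EpiLC library was above every ESC library, but R1 ESC replicate 1 lay close to the EpiLCs.

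Sox1 (chr8:12385771-12436732), a SoxB1 factor of the neural plate, was at 1.38 FPKM in R1 ESC replicate 1, 3.58 in replicate 2 and 2.21 in E14 ESC. R1 EpiLC had 1.25 FPKM without and 0.975 with activin A, and E14 EpiLC had 2.88. Otx2-/- ESC and EpiLC had 1.78 and 7.73 FPKM, and the transgenic ESCs had 3.27 without and 0.475 with dox. The Otx2-/- EpiLC library was the highest and the dox library the lowest. The deposited Sox1 entry spans 50962 bp, 12.6 times the 4037 bp of the RefSeq gene, and that of Pax6 spans 5.46 times its RefSeq gene. What else these 2 entries hold was not tested, and no other member's entry was more than 1.5 times as long as its RefSeq gene.

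Sox21 (chr14:118632456-118636252), a SoxB2 factor that counters SoxB1 factors, was at 1.64 FPKM in R1 ESC replicate 1, 4.46 in replicate 2 and 3.91 in E14 ESC. R1 EpiLC had 0.412 FPKM without and 0.249 with activin A, and E14 EpiLC had 0.155. In Otx2-/- cells the level was 4.96 FPKM as ESC and 0.308 as EpiLC, and the transgenic ESCs had 6.57 without and 1.10 with dox. It was thus a neural factor detected in every ESC library and in no EpiLC library at 1 FPKM.

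Trophoblast factors held 2 members that were off, 2 detected throughout and 5 in between. Off were Elf5, an ETS factor of trophoblast stem cells, with a highest level of 0.188 FPKM, and Gata2, a zinc-finger factor. Cdx2 (chr5:148112476-148118825), the caudal homeobox factor of trophectoderm, was at 2.55 FPKM in R1 ESC replicate 1, was listed at 0 in the dox library, and reached at most 0.604 FPKM in the other 8. Hand1, a bHLH factor of giant cells, ranged from 0.0511 to 3.12 FPKM (median 0.363) and passed 1 FPKM in R1 EpiLC without activin A and in the dox library. Gata3 ranged from 0.240 to 1.34 FPKM (median 0.752) and passed 1 FPKM in R1 ESC replicate 1, R1 EpiLC without activin A and the transgenic ESCs without dox.

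Tead4 (chr6:128177161-128250831), the TEA-domain factor that starts the trophectoderm programme, was at 9.42 FPKM in R1 ESC replicate 1, 12.1 in replicate 2 and 16.1 in E14 ESC. R1 EpiLC had 2.93 FPKM without and 5.11 with activin A, and E14 EpiLC had 1.14. The Otx2-/- line had 14.9 FPKM as ESC and 0.985 as EpiLC, and the transgenic ESCs had 14.4 without and 3.66 with dox. The ESC and EpiLC groups did not overlap, and the dox library lay within the range of the EpiLCs.

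Tfap2c (chr2:172375093-172384121), an AP-2 factor of trophoblast and germ cells, was at 9.67 FPKM in R1 ESC replicate 1, 17.6 in replicate 2 and 16.2 in E14 ESC. R1 EpiLC had 9.84 FPKM without and 8.83 with activin A, and E14 EpiLC had 2.14. Otx2-/- ESC and EpiLC had 18.9 and 7.26 FPKM, and the transgenic ESCs had 17.5 without and 12.2 with dox. The groups overlapped, through R1 ESC replicate 1.

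Its relative Tfap2a (chr13:40811044-40829192), an AP-2 factor of neural crest and surface ectoderm, was at 3.67 FPKM in R1 ESC replicate 1, 2.35 in replicate 2 and 1.51 in E14 ESC. R1 EpiLC had 1.36 FPKM without and 1.05 with activin A, and E14 EpiLC had 0.503. In Otx2-/- cells the level was 2.21 FPKM as ESC and 0.779 as EpiLC, and the transgenic ESCs had 3.64 without and 2.28 with dox. The ESC and EpiLC groups lay side by side without overlap.

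Ets2 (chr16:95924014-95942656), an ETS factor of trophoblast stem cells, ranged from 9.65 FPKM in R1 ESC replicate 1 to 15.5 in E14 ESC. Its group means were 13.3 ± 3.20 FPKM in ESC and 12.0 ± 0.764 in EpiLC (SD, n = 3 each, as for all such means below). Foxj3 (chr4:119212293-119301724), a forkhead factor with a broad range of expression, ranged from 9.71 FPKM in R1 EpiLC with activin A to 16.3 in the dox library, with 13.4 ± 3.09 FPKM in ESC and 10.5 ± 1.21 in EpiLC. Neither gene left the range between 9.65 and 16.3 FPKM in any library.

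The remaining factors were low. Meis1, a TALE homeobox factor, ranged from 0.208 to 1.59 FPKM (median 0.878) and passed 1 FPKM in both R1 EpiLC libraries and with dox. Foxc1, a forkhead factor of mesoderm, was at 1.34 FPKM with dox and had a median of 0.0800. Irx3, an Iroquois homeobox factor, ranged from 0.0593 to 2.04 FPKM (median 0.532) and passed 1 FPKM with dox and in the EpiLC libraries of all 3 lines, except R1 with activin A.

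**Figure D3:**
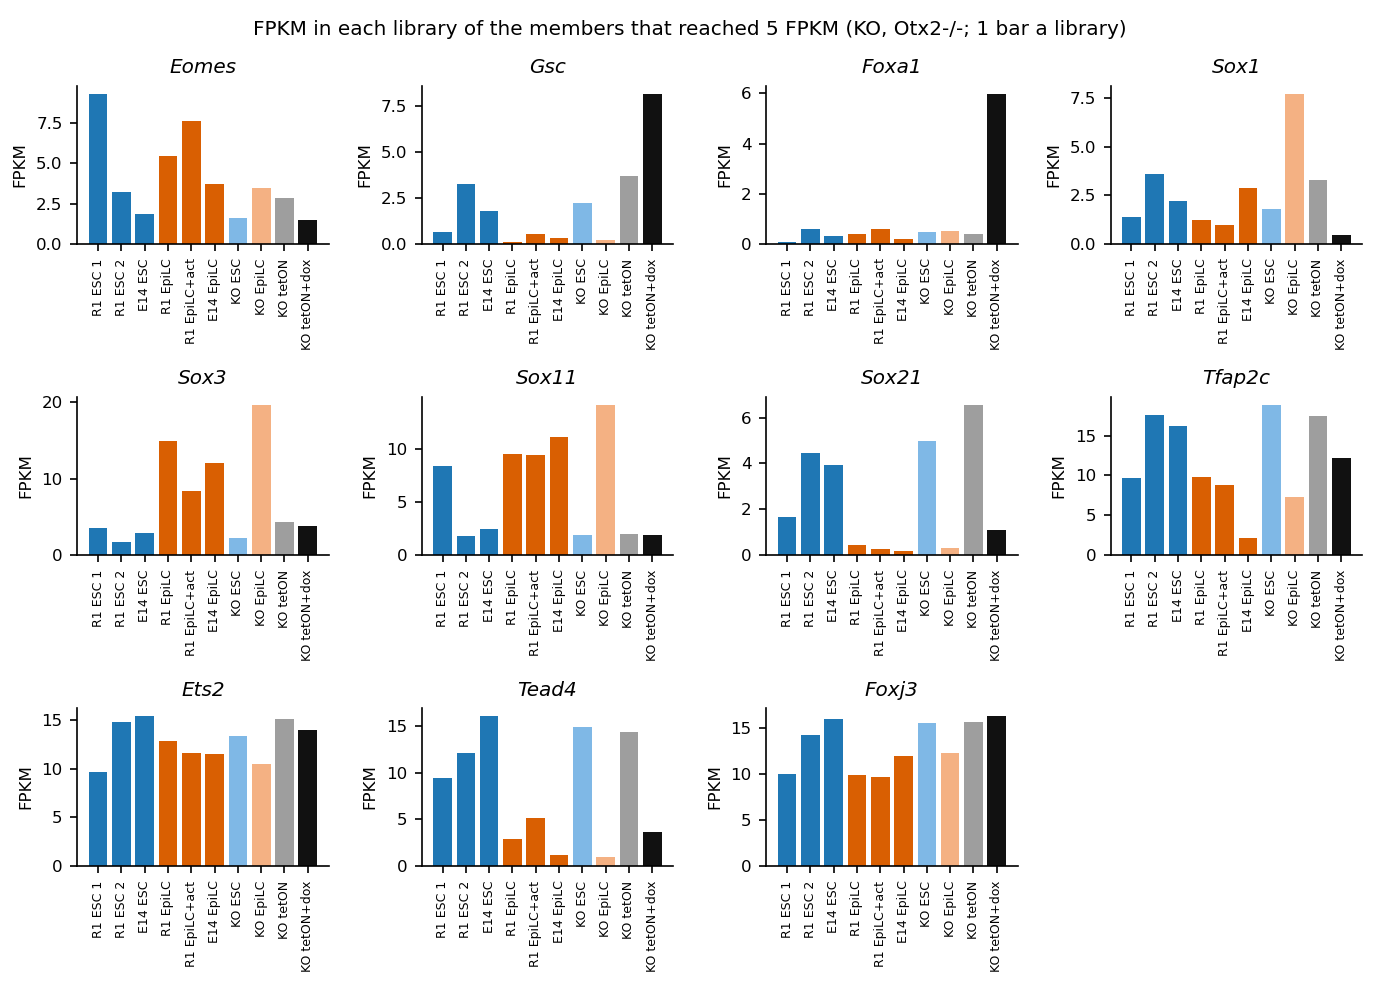
FPKM (y axis, from 0, scale set per gene) of the 11 members that reached 5 FPKM, with 1 bar per library (x axis) and colours for the kind of cell. Sox3 bars are tall in EpiLC, Tead4 and Sox21 bars in ESC, and the Foxa1 bar stands up with dox only.

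EpiLCs were compared with ESCs over the 3 and 3 libraries of R1 and E14 by limma on log2(FPKM + 1), with the line as a term. Genes entered at a mean level of 1 FPKM or more over both states together. Sox21, Tfap2a and Gsc had EpiLC means under 1 FPKM (0.272, 0.970 and 0.314) and entered through their ESC level. Only 11 of the 37 members entered this test, so the 26 others have no p-value. The spread among EpiLC libraries includes that between 1 with activin A, 1 without and 1 not stated. Of the 11, 1 rose and 3 fell at a Benjamini-Hochberg adjusted p of 0.05, against a background of 9.73% of 12244 genes that rose and 10.6% that fell. Sox3 rose from 2.69 ± 0.902 to 11.8 ± 3.24 FPKM, a change of 1.79 on the log2 scale (SE 0.29, limma adjusted p = 0.0147). Sox21 fell from 3.34 ± 1.496 to 0.272 ± 0.130 FPKM, a change of -1.71 (SE 0.33, limma adjusted p = 0.0227). Tead4 fell from 12.6 ± 3.37 to 3.06 ± 1.98 FPKM, a change of -1.84 (SE 0.41, limma adjusted p = 0.0342), and Tfap2a from 2.51 ± 1.09 to 0.970 ± 0.433 FPKM, a change of -0.81 (SE 0.20, limma adjusted p = 0.0440). By role, 4 of the 11 tested members were neural, 4 trophoblast, 2 streak and 1 other, and no endoderm factor entered.

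The other 7 tested members did not pass. Sox11 had a log2 change of 1.29 (SE 0.48, limma adjusted p = 0.115), Tfap2c -1.12 (SE 0.47, adjusted p = 0.148) and Gsc -1.05 (SE 0.39, adjusted p = 0.117). Eomes had 0.36, Foxj3 -0.31, Sox1 -0.34 and Ets2 -0.11, with limma adjusted p from 0.247 to 0.718. The median change of the 11 was -0.34, beside -0.09 over all genes tested, and 6 of the 11 were under 0.05 before adjustment, against 36.8% of all genes.

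These calls depended on single libraries. Without R1 ESC replicate 1, 3 members rose and 6 fell, and 4118 genes in all were called in place of 2484. Eomes (0.78, limma adjusted p = 0.0295) and Sox11 (1.87, adjusted p = 0.00238) then also rose. Foxj3 (-0.45, limma adjusted p = 0.0251), Gsc (-1.45, adjusted p = 0.0157) and Tfap2c (-1.54, adjusted p = 0.0409) then also fell. Leaving out any other library removed all 3 falls, and the rise of Sox3 too where R1 EpiLC without activin A, E14 ESC or E14 EpiLC was left out. Their log2 changes kept their direction in those 5 fits, at 1.57 to 1.80 where Sox3 was lost, -1.46 to -1.81 for Sox21, -1.255 to -2.18 for Tead4 and -0.74 to -0.94 for Tfap2a. Fewer genes of any kind were called in those fits, 398 to 1829. Leaving out either E14 library left no E14 pair, since the line term took up the other. The fits without E14 ESC and without E14 EpiLC thus rested on R1 alone, gave the same log2 changes and are not separate checks.

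The same limma fit gave the related structural and signalling genes. Of 12 streak signals and surface genes, 6 were tested and none passed. Of these Fst, an antagonist of activin named here after its values were seen, was at 8.36 FPKM in R1 ESC replicate 1 and at 0.506 to 1.36 elsewhere. Of 12 endoderm genes 6 were tested, and 2 rose (Lamb1, a laminin chain, by 2.43 log2 units, and Dab2, an adaptor of visceral endoderm, by 1.48) while 2 fell (Lama1, another laminin chain, -2.55, and Sparc, a matrix protein, -0.84). Of 10 neural genes 9 had an entry and 7 were tested. Ncan, a brain proteoglycan, rose (0.92), and Stmn2 (-3.20), Tubb3 (-3.09) and Ncam1 (-1.86), genes of the neuronal cytoskeleton and surface, fell. Of 10 trophoblast genes 6 were tested, 4 rose and none fell, namely Krt18 (3.86), Krt7 (1.83) and Krt8 (1.19), keratins of simple epithelia, and Cdh3 (1.87), a cadherin. Without R1 ESC replicate 1 no call of these 4 lists was lost, and Col4a1 and Col4a2, collagen chains of basement membranes, also fell.

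The neural list summed to 405, 202 and 248 FPKM in R1 ESC replicates 1 and 2 and E14 ESC, and to 31.4, 29.5 and 45.3 in R1 EpiLC without and with activin A and E14 EpiLC. Stmn2 and Tubb3 made up most of these sums, and the other 7 neural genes summed to 13.6, 15.2 and 18.8 FPKM in those ESCs and 7.78, 5.43 and 12.5 in those EpiLCs. The trophoblast list summed to 15.1 to 16.7 FPKM in those ESCs and 46.6 to 132 in those EpiLCs. Of its 10 genes, 6 reached 1 FPKM somewhere, and Prl3d1, the giant-cell hormone, was listed at 0 in every library. The part of other cell types in these results was not tested.

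Otx2-/- cells were set against the R1 and E14 libraries of their state in a limma fit of 8 libraries, which takes the spread of the lone Otx2-/- library from the other groups. In ESC, 0 of the 11 tested members passed, 0 of them under 0.05 before adjustment, against a background of 0.139% of 12271 genes called and 1.08% under 0.05 unadjusted. In EpiLC, 0 of 11 passed, against a background of 0.163%, and 1 was under 0.05 before adjustment, against 3.59% of all genes. That member was Sox1, at 7.73 FPKM in Otx2-/- EpiLC against 1.25, 0.975 and 2.88 in the wild-type EpiLCs, a log2 difference of 1.76 (SE 0.49, limma adjusted p = 0.960). Sox3 differed by 0.73 (SE 0.38), Sox11 by 0.47 (SE 0.64), Tead4 by -0.91 (SE 0.57) and Eomes by -0.51 (SE 0.70), all with a limma adjusted p of 0.960. In Otx2-/- cells as in the wild-type ones, EpiLC had more Sox3 and Sox11 and less Sox21, Tead4, Tfap2a and Gsc than ESC, with 1 library a state.

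Dox-induced Otx2 was read from 1 library with and 1 without dox, so there is no replicate check and no p-value. The size rule counts genes with 5 FPKM or more in 1 of the pair and a log2 ratio of FPKM + 1 of 1 or more either way. Of the 7 members that reached 5 FPKM, 1 was higher with dox (Foxa1, log2 ratio 2.32), against a background of 6.42% of 9304 genes. Lower with dox were 2 members, Sox21 (-1.85) and Tead4 (-1.72), against 5.71% of genes. Gsc, at 3.72 and 8.18 FPKM, fell just short with a log2 ratio of 0.96, while Tfap2c (-0.49), Ets2 (-0.10) and Foxj3 (0.06) differed less.

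At any level, 4 members were at least 2-fold higher on that scale with dox (Foxa1, Hand1, Foxc1 and Gata4) and 4 at least 2-fold lower (Sox21, Tead4, Sox1 and Pax6), against a background of 3.94% and 2.96% of all 22867 symbols. Hand1 had 0.303 FPKM without and 3.12 with dox, and Pax6 had 2.75 and 0.501. Over the 37 members, 18 ratios were above 0 and 19 below, and the median ratio of the 7 that reached 5 FPKM was -0.10, beside -0.06 over all genes at that level. Beside these values, the endoderm structural list summed to 189 FPKM without and 279 with dox, the neural list to 214 and 33.5, and the trophoblast list to 22.3 and 252. Single genes set much of these sums. Stmn2 was at 150 FPKM without and 13.6 with dox and Tubb3 at 46.4 and 2.501, while the other 7 neural genes summed to 17.2 and 17.4. Those near-equal sums held opposite changes, with Nes at 5.12 and 12.9 FPKM and Ncam1 at 9.48 and 1.76. Of all neural genes with an entry, 5 were higher and 4 lower with dox. Sparc was at 153 and 202 FPKM and Lamb1 at 7.73 and 38.6, while Lama1 was at 9.94 and 2.93. The trophoblast genes other than Krt18 and Cdh3 summed to 13.8 and 38.7 FPKM. The fibroblast markers summed to 4.39 and 9.80 FPKM, of which Acta2 gave 0.897 and 7.06. The part of other cell types in the dox library was not tested.

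Sox21 and Tead4 were lower in EpiLC and also lower with dox, while Sox3, which rose in EpiLC, was at 4.32 and 3.83 FPKM without and with dox. The difference between these responses was not tested, since the dox pair has no replicates.

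Activin A in R1 EpiLC was also read from 1 library each. Of the 7 members that reached 5 FPKM, 0 were higher and 0 lower by the size rule, against a background of 1.07% of 8963 genes higher and 1.07% lower. The largest ratios among them were those of Sox3 (-0.75) and Tead4 (0.64), and Eomes, a known responder to Nodal and activin signals, had 0.42. Below 5 FPKM, Hand1 was at 2.60 FPKM without and 0.579 with activin A. With 1 library a condition these pairs have no replicate spread of their own.

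The R1 ESC replicates give the size of difference that arises without a change of condition. Of the 6 members that reached 5 FPKM, 0 were higher in replicate 2 and 2 were lower, Eomes (-1.30) and Sox11 (-1.76), against a background of 5.42% of 9149 genes higher and 6.09% lower. The median log2 ratio of all these genes was -0.22, and it was -0.14 after median-ratio scaling, which gave 555 genes higher and 447 lower in place of 496 and 557. At any level, T and Cdx2 were also at least 2-fold lower in replicate 2, and Gsc and Sox21 at least 2-fold higher, in all 4 lower and 2 higher, against a background of 2.78% and 3.31% of all symbols. Between R1 ESC replicate 2 and E14 ESC, a pair added after seeing the data, none of the 4 members that reached 5 FPKM passed the size rule in either direction, against a background of 1.12% of 8934 genes higher and 1.35% lower. Ratios past the size rule thus arose between replicates of 1 condition as well, in Eomes and Sox11.

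**Figure D4:**
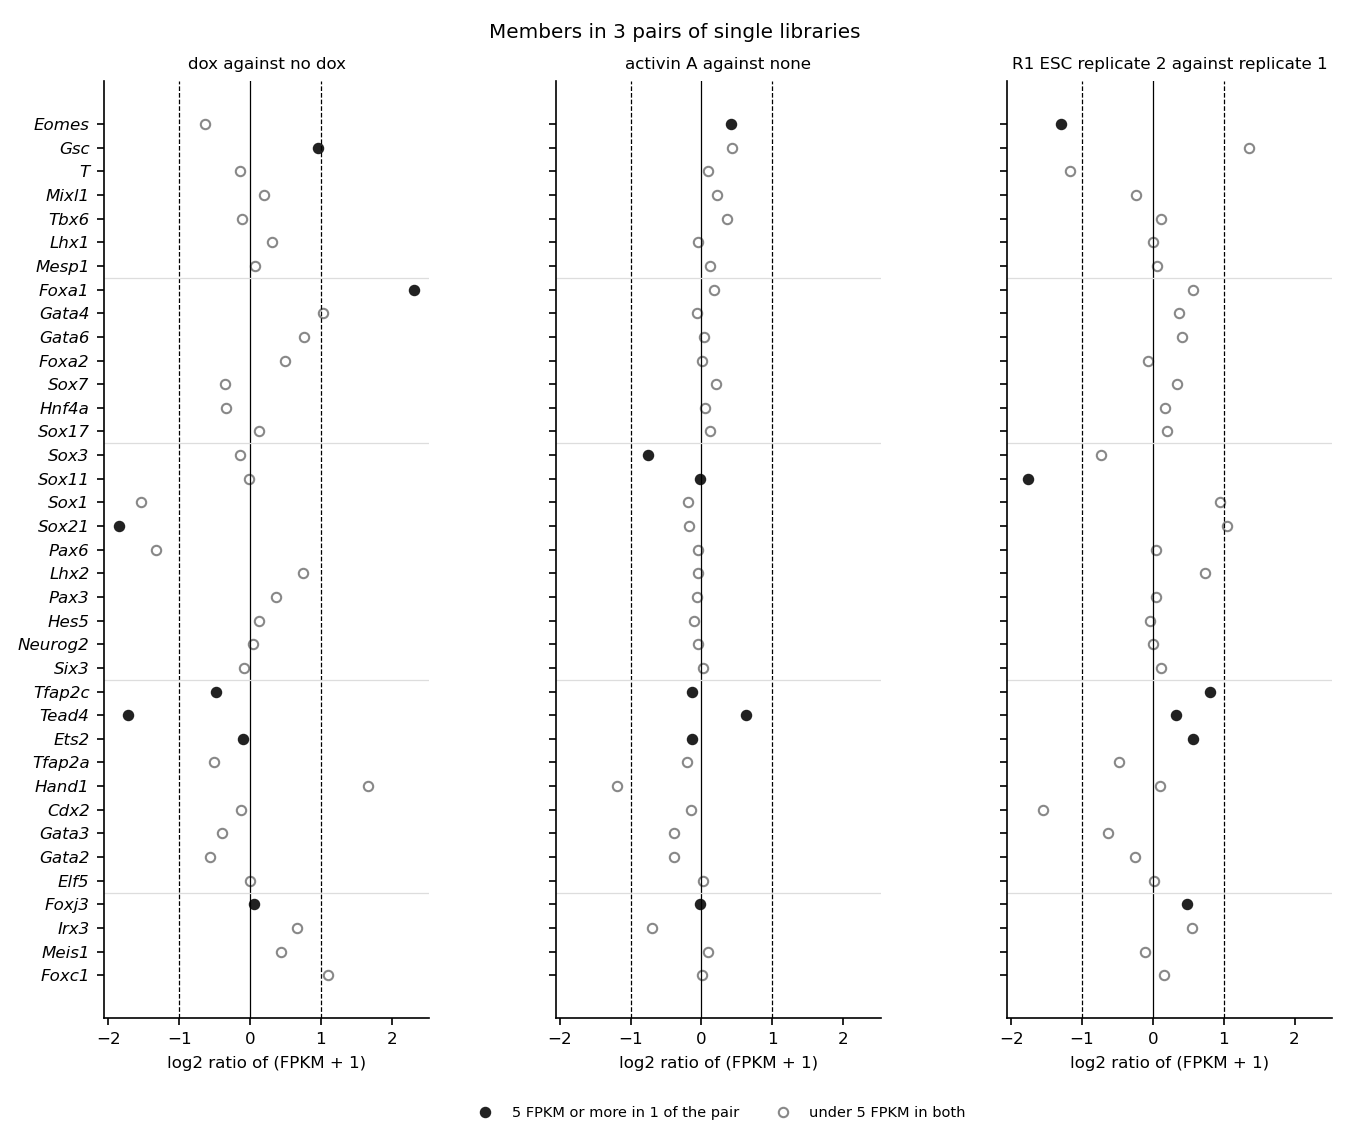
Log2 ratio of FPKM + 1 (x axis) of the 37 members (y axis) for dox against no dox, activin A against none, and R1 ESC replicate 2 against replicate 1, with 1 library on each side. Filled points reached 5 FPKM in 1 of the pair, open points did not, and dashed lines mark a log2 ratio of 1 either way. Foxa1, Sox21 and Tead4 lie outside the lines with dox, no filled point does with activin A, and Eomes and Sox11 do between the replicates.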

How the data were processed

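Per the labels' protocols, polyadenylated RNA was primed with random hexamers and read on an Illumina Genome Analyzer. FPKM per gene were made by the authors with TopHat and Cufflinks on mm9, per the submitters' processing notes. For versions, annotation and settings: not given in the sources used here. No strand-marking step is described, so antisense and overlapping genes cannot be told apart. Each table held 23112 entries, of which 17 exact repeats were dropped and 228 sharing a symbol were summed. Table starts were shifted by 1, since end minus start matched the RefSeq gene length for 7190 entries.

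FPKM are not counts, so limma 3.58.1 in R 4.3.3 (trend, two-sided, Benjamini-Hochberg, 0.05) was run on log2(FPKM + 1) (pseudocount 1) where a gene averaged 1 FPKM or more. It was run on simulated data too, but only genes above about 5 FPKM were changed there. That run thus does not cover calls of lower genes such as Sox21 and Tfap2a. Folds on this scale understate changes of low genes. Members with 5 FPKM in 1 library or a limma call are given in full, others by range. The members and lists were chosen with earlier results of these data known. Alternatives were a pseudocount of 0.1, no filter, other scalings and thresholds, no line term and leaving out each library.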

Additional observations from a re-analysis of the deposited data

Results flagged for a closer look

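Sox1 values went in opposite directions in the lines on conversion to EpiLC. Both R1 EpiLC libraries lay below both R1 ESC libraries, a mean log2 change of -0.65. E14 changed by 0.27 and Otx2-/- by 1.65, each with 1 library a state. The R1 ESC replicates themselves differed by 0.95 log2 units, at 1.38 and 3.58 FPKM. The lower one was close to R1 EpiLC without activin A, at 1.25 FPKM. The E14 change minus the R1 change was 0.92, and the Otx2-/- change minus the R1 change was 2.30. Neither of these 2 differences was tested. A fit added after seeing the data gave a response of Otx2-/- minus that of R1 and E14 together of 1.99 (SE 0.69, limma adjusted p = 0.997), which did not pass. The Sox1 entry spans more than the RefSeq gene, and its part in these values was not tested. Opposite sides were counted for members only, so no share over all symbols stands beside these counts. With 1 library a state in E14 and Otx2-/-, any unequal values there count as a side. At any level, 6 members lay on opposite sides in R1 and E14 (Sox1, Cdx2, Foxa2, Gata6, Lhx1 and Meis1) and 5 in R1 and Otx2-/- (Sox1, Cdx2, Foxa2, Hes5 and Meis1). Apart from Sox1 these were under 1 FPKM throughout in at least 1 line of the pair, and the differences were not tested.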

How the results depend on the processing

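At a threshold of 0.5 FPKM 8 members were off, and at 2 FPKM 3 members were detected throughout. Shares over all symbols were not counted at these thresholds. Dropping the filter on low values brought 37 members into the EpiLC test in place of 11, and 2900 genes were called in place of 2484. With no filter on low values 7 members fell in EpiLC (Gata2, Gata4, Hnf4a and Pax6 in addition), and the called genes numbered 34 for Otx2-/- ESC and 59 for Otx2-/- EpiLC. Leaving out each library in turn gave 0 to 3 members that rose and 0 to 6 that fell, 398 to 4118 genes called in EpiLC against ESC, 20 to 26 in Otx2-/- ESC and 21 to 42 in Otx2-/- EpiLC. The log2 change of Ets2 then ran from -0.3162 to 0.02972 and that of Sox1 from -0.6477 to 0.01712, neither being called. Tfap2a lost its call without the line term (-0.81, limma adjusted p = 0.0882). With 1 FPKM in place of 5 in the size rule, 4 members were higher and 4 lower with dox. All symbols gave 3.94% and 2.96% at any level, the same rule, since a 2-fold ratio of FPKM + 1 needs 1 FPKM. In R1 ESC replicate 2, 2 members were higher and 4 lower, against 3.31% and 2.78% of all symbols. With activin A 1 member was lower, and the share over all symbols was not counted. With a pseudocount of 0.1, 2 members were higher with dox, and here too the share over all symbols was not counted. The cause of these shifts was not tested. The calls of Sox3, Sox21, Tead4 and Tfap2a stood under the other pseudocount, both scalings and no filter. No paired analysis by replicate number was possible because no group but R1 ESC has a number in its labels; the fit of EpiLC against ESC pairs the states by line. At these depths, levels under 1 FPKM are poorly resolved.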
